A study of Mus musculus with 6 samples.

Results

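New neurons are made in the adult hippocampus, and 9 genes of this process were followed in the hippocampal RNA of control and L-DL KD mice. The genes were chosen by name, with earlier results of these data known, and they are 9 of 52550 genes counted. They are Dcx, Sox11, Sox4, Neurod1, Igfbpl1, Eomes, Draxin, Mki67 and Top2a. The question was whether RNA of dividing progenitors and immature neurons differed after targeting of hnRNP L-DL, an RNA binding protein of nuclear speckles encoded by Hnrnpdl.

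In the subgranular zone of the dentate gyrus, radial glia-like stem cells give rise to dividing intermediate progenitors, which make neuroblasts and then immature granule neurons. Eomes (Tbr2) marks the intermediate progenitors, Neurod1 and the SoxC factors Sox4 and Sox11 act as the cells leave the cycle and become neurons, and Dcx binds the microtubules of migrating young neurons. Mki67 and Top2a are made by cycling cells of any kind, so glial cells that divide also express them, and Sox4 is expressed in other cell types as well. Draxin encodes a secreted axon guidance protein, and Igfbpl1 a secreted protein related to the insulin-like growth factor binding proteins.

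There were 3 control libraries and 3 libraries labelled L-DL KD. All mice were male C57BL/6 J mice that had been injected in CA1, when 8 weeks old, with an adeno-associated virus for either a control shRNA or a shRNA against L-DL. According to the methods of the study, H1 promoters drove the shRNAs, a CamkIIα promoter drove the zsGreen reporter, and the titre of the control virus was higher than that of the L-DL virus. The injected area, CA1, is not the dentate gyrus, in which the new granule neurons are made. Where in the hippocampus the genes followed here were expressed was not tested. The labels call the control mice wild type, and they use both knockout and knockdown for the other mice. Nothing in the labels says that the replicates were separate animals, so p-values measure the spread between these samples.

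Reads counted on genes ranged from 16052529 to 17913064 per library. Counts were scaled to library size with edgeR's TMM factors, giving CPM, a gene's counts scaled to a fixed library total. Under the L-DL KD label, Hnrnpdl was not lower, at 180 ± 33.9 CPM (SD, n = 3) against 177 ± 6.41 CPM (SD, n = 3) in the controls, so these counts do not check the label. They cover the whole gene, which also encodes the short isoform S-DL, and the levels of L-DL by which the study assessed the knockdown were not analysed here. In this text "L-DL KD" therefore means the libraries labelled so. Pan-neuronal markers summed to 4835 to 5048 CPM in the controls and to 3108 to 3621 CPM in the L-DL KD libraries. Markers of the choroid plexus and ependyma stood apart between single libraries, and Ttr, a carrier of thyroid hormone made by the choroid plexus, had 4681 CPM in L-DL KD replicate 1 and 13.9 CPM in L-DL KD replicate 3. In bulk RNA, fewer cells of a type and less RNA per cell cannot be told apart.

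All 9 genes had at least 10 counts in at least 3 libraries and were tested. With edgeR's quasi-likelihood test, 2 of the 9, Sox4 and Dcx, were higher in L-DL KD at an adjusted p under 0.05, and 0 were lower. Among all 17621 genes tested, 15.6% were called higher and 15.0% lower, so the share of the 9 genes called was near the background. Of all calls, 51.0% were higher with TMM, and 92.9% when libraries were scaled to the dentate granule markers, which moved the median log2 fold change of all genes to 0.43. Sox4 and Dcx were higher under both scalings, but the dentate scaling raised genes in general, so it is no separate check of these calls. Relative to the median of all genes, Sox4 stood at 1.07 and Dcx at 0.36 under either scaling. At an unadjusted p under 0.05, 4 of the 9 were higher and 0 lower, and DESeq2 also called 0 lower. The log2 fold change was above 0 in 8 of the 9 genes and its median was 0.37, against 0.01 over all genes tested. The 3 libraries of the groups lay apart for Sox4 and Dcx only among the 9, and this was so upwards in 23.8% and downwards in 23.4% of all genes tested.

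**Figure D1:**
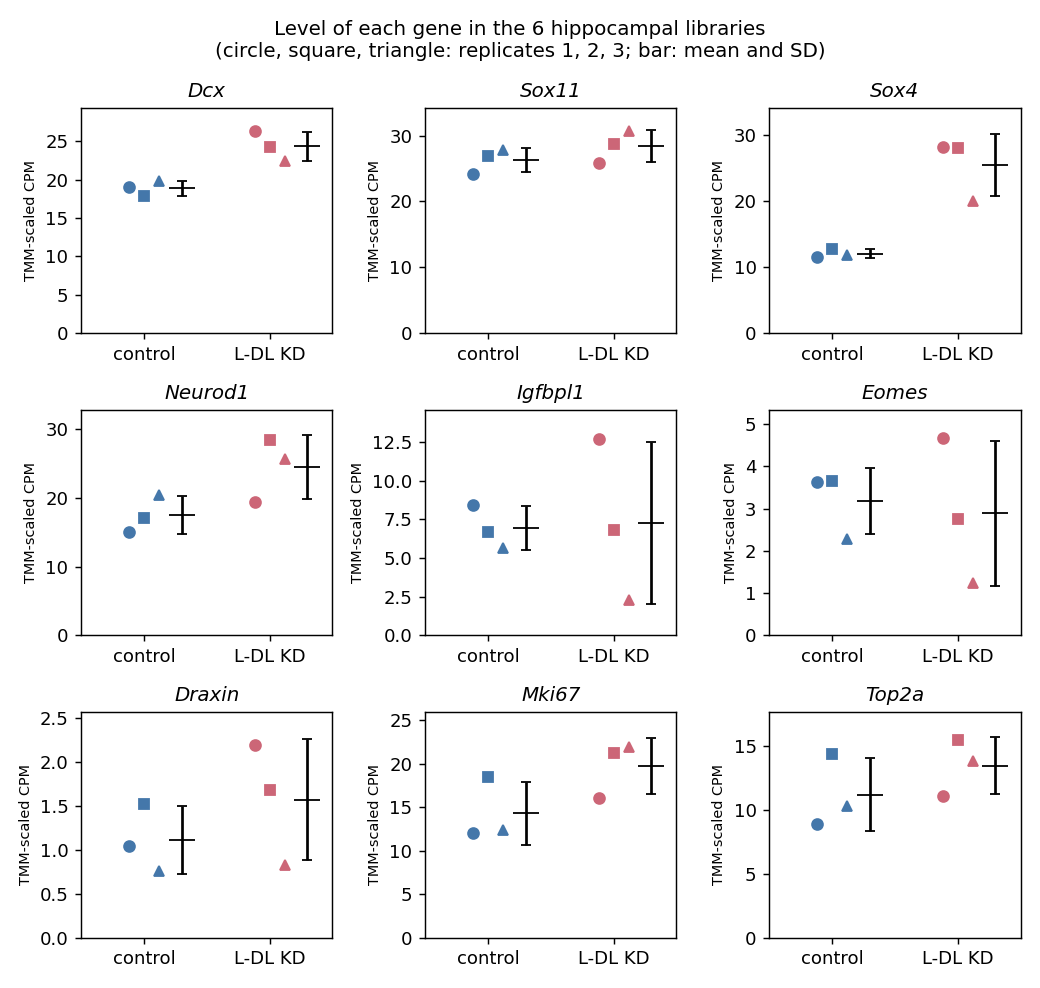
Level of each of the 9 genes in every library, in TMM-scaled CPM on axes that start at 0, with circles, squares and triangles for replicates 1, 2 and 3 and the group mean ± SD beside them. Sox4 and Dcx had groups that lay apart, and the L-DL KD libraries of Igfbpl1 spread from 2.26 to 12.7 CPM.

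The largest difference was in Sox4 (ENSMUSG00000076431; GRCm38 13:28948919-28953713, minus strand). Sox4 had 11.6, 12.7 and 11.8 CPM in control replicates 1 to 3 and 28.2, 28.0 and 20.1 CPM in L-DL KD replicates 1 to 3. Every L-DL KD library was above every control library, and L-DL KD replicate 3 was the lowest of them. The means were 12.04 ± 0.626 and 25.4 ± 4.67 CPM (SD, n = 3), a 2.11-fold difference (log2 fold change 1.08, standard error 0.155, adjusted p = 0.00177, edgeR). The call held with each library left out, at log2 fold changes of 1.0 to 1.23.

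Sox11 (ENSMUSG00000063632; 12:27334264-27342574, minus strand) is the paralog of Sox4 and acts with it in young neurons. Sox11 had 24.2, 26.9 and 27.8 CPM in the controls and 25.9, 28.8 and 30.6 CPM in L-DL KD, and the groups overlapped. Its log2 fold change was 0.11 with a standard error of 0.105 (adjusted p = 0.460, edgeR), and the 95% interval of -0.09 to 0.32 leaves out a difference as large as that of Sox4. The log2 ratio of Sox4 to Sox11 was -1.07, -1.08 and -1.24 in the controls and 0.12, -0.04 and -0.61 in L-DL KD. It was taken from CPM not divided by exon length, so its sign does not rank these genes by level. This ratio was chosen after the values of both genes were seen, so it is given as a description with no test, and the mean was 0.95 higher in L-DL KD.

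Dcx (ENSMUSG00000031285; X:143855842-143933311, minus strand) had 19.0, 17.8 and 19.8 CPM in the controls and 26.3, 24.2 and 22.4 CPM in L-DL KD. The groups lay apart, with means of 18.9 ± 0.999 and 24.3 ± 1.93 CPM (SD, n = 3). The difference was 1.29-fold (log2 fold change 0.37, standard error 0.109, adjusted p = 0.0352, edgeR). This call was near the threshold. It was lost without any 1 of 5 libraries, namely each of the 3 controls (adjusted p = 0.0997, 0.125 and 0.0672 without replicates 1, 2 and 3) and L-DL KD replicates 1 and 2 (adjusted p = 0.0518 and 0.0787), while the log2 fold change stayed between 0.31 and 0.43. With all libraries, edgeR also lost it without a filter on low counts (adjusted p = 0.0612) and with the replicate number as a block (adjusted p = 0.0713).

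Neurod1 (ENSMUSG00000034701; 2:79452521-79456751, minus strand), which drives the differentiation and survival of new granule neurons, had 15.0, 17.1 and 20.4 CPM in the controls and 19.4, 28.4 and 25.7 CPM in L-DL KD. L-DL KD replicate 1 fell inside the control range and the other two were above it. The log2 fold change of 0.48 (standard error 0.174) did not pass the test (adjusted p = 0.0688, edgeR). It passed without L-DL KD replicate 1 (adjusted p = 0.00880) and with DESeq2 (adjusted p = 0.0352). Cerkl overlaps Neurod1 on the same strand and had 22 to 52 counts per library, against 244 to 507 for Neurod1.

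Mki67 (ENSMUSG00000031004; 7:135689784-135716361, minus strand) encodes the Ki-67 protein, which coats mitotic chromosomes. Mki67 had 12.1, 18.4 and 12.4 CPM in the controls and 16.1, 21.2 and 22.0 CPM in L-DL KD. Control replicate 2 was the high control and L-DL KD replicate 1 was the low L-DL KD library, and the groups overlapped. A log2 fold change of 0.46 (standard error 0.201) resulted (adjusted p = 0.117, edgeR), and the adjusted p was 0.0367 without control replicate 2 and 0.0374 without L-DL KD replicate 1.

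Top2a (ENSMUSG00000020914; 11:98992943-99024189, minus strand), the DNA topoisomerase of dividing cells, had 8.86, 14.4 and 10.3 CPM in the controls and 11.1, 15.5 and 13.8 CPM in L-DL KD. As for Mki67, control replicate 2 was the highest control and L-DL KD replicate 1 the lowest L-DL KD library. The groups overlapped, at a log2 fold change of 0.26 and a standard error of 0.209 (adjusted p = 0.378, edgeR). It was 0.12 without control replicate 1 and 0.49 without control replicate 2.

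Igfbpl1 (ENSMUSG00000035551; 4:45809468-45826923, minus strand) had 8.43, 6.70 and 5.64 CPM in the controls and 12.7, 6.77 and 2.26 CPM in L-DL KD. The highest and the lowest of the 6 libraries were both L-DL KD libraries. The highest L-DL KD library was 5.62 times the lowest, and 1.35% of 16118 genes with a mean of at least 1 CPM had a wider ratio in L-DL KD. Igfbpl1 had a log2 fold change of 0.07 with a standard error of 0.504 (adjusted p = 0.933, edgeR), and it was -0.61 without L-DL KD replicate 1 and 0.50 without L-DL KD replicate 3.

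Eomes (ENSMUSG00000032446; 9:118478212-118486132, plus strand) had the same order of L-DL KD libraries. Its values were 3.63, 3.64 and 2.28 CPM in the controls and 4.68, 2.74 and 1.25 CPM in L-DL KD, again with both extremes in L-DL KD. The highest L-DL KD library was 3.74 times the lowest, a ratio that 2.48% of the same genes exceeded. Eomes had a log2 fold change of -0.14 with a standard error of 0.443 (adjusted p = 0.846, edgeR), and it was -0.67 without L-DL KD replicate 1 and 0.22 without L-DL KD replicate 3.

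Draxin (ENSMUSG00000029005; 4:148098437-148130698, minus strand) was the lowest of the 9 genes, with 12 to 40 counts per library. It had 1.05, 1.53 and 0.761 CPM in the controls and 2.20, 1.68 and 0.833 CPM in L-DL KD, so L-DL KD replicate 1 was again the highest and replicate 3 the lowest of its group. The log2 fold change of 0.50 (standard error 0.438, adjusted p = 0.432, edgeR) was similar to that of Neurod1 but had a larger error. It was 0.18 without L-DL KD replicate 1 and 0.80 without L-DL KD replicate 3.

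**Figure D2:**
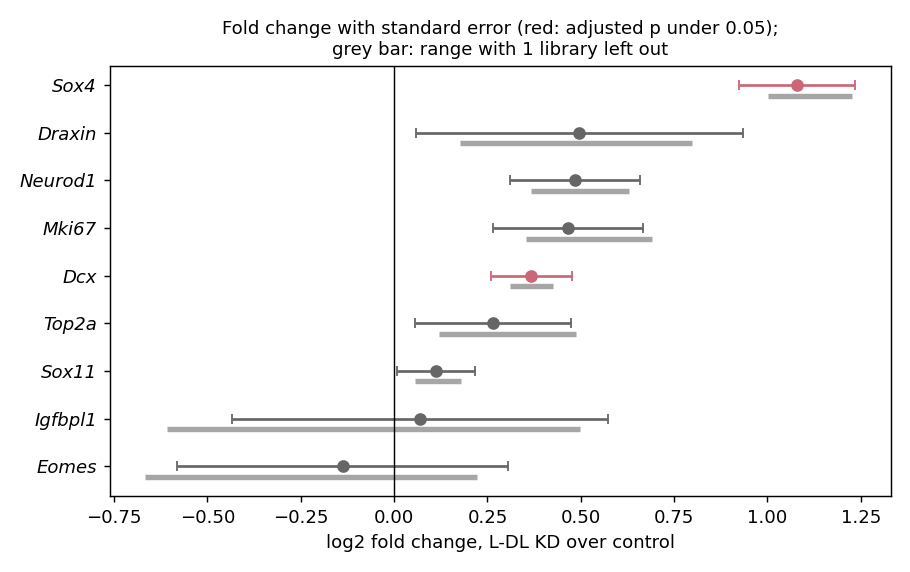
Log2 fold change of each gene, L-DL KD over control, with its standard error, in red where the adjusted p was under 0.05, and a grey bar for the range with 1 library left out. Sox4 stands at 1.08 and Dcx at 0.37, and the grey bars of Igfbpl1 and Eomes cross 0.

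For the order of levels between genes, CPM was divided by exon length, unlike in the Sox4 to Sox11 ratio above. In CPM per kilobase, the controls had Neurod1 at 6.41 ± 0.998, Sox11 at 3.16 ± 0.221, Sox4 at 2.51 ± 0.131 and Igfbpl1 at 2.13 ± 0.433 (SD, n = 3). Below these stood Dcx at 1.49, Mki67 at 1.42, Top2a at 1.24, Eomes at 0.766 and Draxin at 0.214 CPM per kilobase. Neighbours in this order whose control libraries overlapped were Sox4 with Igfbpl1, Dcx with Mki67 and Mki67 with Top2a. In L-DL KD, Sox4 stood at 5.31 ± 0.973 CPM per kilobase, above all 3 Sox11 libraries, whose mean was 3.42 ± 0.287 (SD, n = 3).

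The profiles over the 6 libraries were compared between the genes. Each gene's log2(CPM + 0.5) was centred on its own mean, and the mean absolute distance between genes was taken for the 36 pairs. Mki67 and Top2a were the nearest pair at 0.0979, followed by Dcx and Sox11 at 0.156, while the median of the pairs was 0.351. The distance is also small between genes that vary little, whatever their order of libraries. Over L-DL KD replicates 1 to 3, Dcx fell from 26.3 to 22.4 CPM and Sox11 rose from 25.9 to 30.6 CPM. Igfbpl1 and Eomes were 0.207 apart, and Neurod1 and Igfbpl1 were the farthest pair at 0.721. All pairs share libraries and depth, and no p is given.

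**Figure D3:**
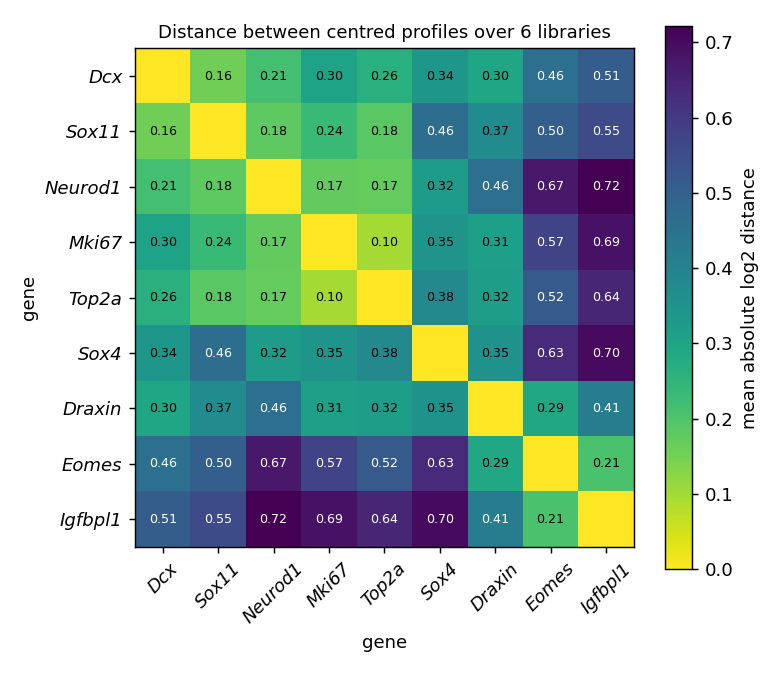
Mean absolute log2 distance between the centred profiles of each pair of the 9 genes over the 6 libraries, with dark cells for distant pairs. Mki67 and Top2a are closest at 0.0979, and Igfbpl1 and Eomes lie 0.207 from each other and far from Neurod1.

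Other genes were searched for the most similar profile among 12714 genes with a mean of at least 5 CPM. The nearest to Dcx were Tbc1d24 at a distance of 0.00985, Naf1 at 0.0131 and Tcf3 at 0.0289. The nearest to Sox11 were Ppip5k2, Arv1 and Scrib, at 0.0174 to 0.0231. The nearest to Mki67 were Nop9, Pvt1 and Tradd, at 0.0694 to 0.0718, each nearer than Top2a.

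The promoters of Mki67 and Top2a, the nearest pair, and of Sox4, the gene with the largest difference, are shown from RefSeq on GRCm38.p6. Each is the 250 bases before the RefSeq start, read 5′ to 3′ on the gene's strand. RefSeq starts can differ from the gene ends given above, which came from GENCODE. The Sox4 window reaches into the GENCODE gene, which ends at 28953713, and its last ATTGG lies in this overlap. Capitals mark CCAAT, the core of the box bound by NF-Y, which reads ATTGG from the other strand. They also mark TTTGAA, which reads TTCAAA from the other strand, and the palindrome TTCGAA, both forms of the cell cycle homology region found before many mitotic genes. The windows are chr7:135716380-135716629 for Mki67, chr11:99024190-99024439 for Top2a and chr13:28953700-28953949 for Sox4, all on the minus strand.
Mki67: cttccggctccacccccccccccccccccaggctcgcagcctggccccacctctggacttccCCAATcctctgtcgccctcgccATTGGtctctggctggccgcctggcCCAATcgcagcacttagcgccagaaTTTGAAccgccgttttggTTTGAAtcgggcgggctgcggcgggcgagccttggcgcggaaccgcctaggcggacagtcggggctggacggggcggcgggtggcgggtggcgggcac
Top2a: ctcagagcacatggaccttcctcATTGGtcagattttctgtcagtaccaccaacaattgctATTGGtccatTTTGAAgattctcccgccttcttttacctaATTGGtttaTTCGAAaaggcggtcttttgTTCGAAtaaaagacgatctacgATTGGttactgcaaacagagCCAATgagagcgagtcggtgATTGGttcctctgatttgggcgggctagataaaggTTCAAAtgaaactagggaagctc
Sox4: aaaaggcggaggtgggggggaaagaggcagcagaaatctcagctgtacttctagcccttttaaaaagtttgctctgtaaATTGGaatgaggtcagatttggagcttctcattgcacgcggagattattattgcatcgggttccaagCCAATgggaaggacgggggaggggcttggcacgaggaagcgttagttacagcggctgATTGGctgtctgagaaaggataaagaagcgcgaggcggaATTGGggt
The Mki67 window held 3 CCAAT and 2 TTTGAA matches, and the Top2a window held 6 CCAAT, 2 TTTGAA and 2 TTCGAA matches. The Sox4 window held 4 CCAAT matches and neither of the other motifs. Of 32851 promoter windows of the same length, 33.8% held CCAAT at least once and 2.79% at least 3 times, 16.0% held TTTGAA and 1.34% held TTCGAA, on either strand. RefSeq windows were found for 8 of the 9 genes, without Igfbpl1. A match describes letters in this window and is not a binding site.

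The genes around these 9 were read from lists of the steps of neurogenesis. Counts called in a list are to be read beside all genes tested, of which 15.6% were higher and 15.0% lower. Of 15 neural stem cell genes tested, 6 were higher, 2 lower and 7 not called, with a median log2 fold change of 0.34. Vim, an intermediate filament of stem cells, astrocytes, endothelium and reactive microglia, had 430, 426 and 352 CPM in the controls and 699, 731 and 702 CPM in L-DL KD (log2 fold change 0.82, adjusted p = 0.000583, edgeR). Hes5, a Notch target, had 15, 25 and 15 counts in the controls and 6, 0 and 6 counts in L-DL KD, and its fall rests on these few counts (adjusted p = 0.0447, edgeR). Hes5 passed the filter in 3 of the fits with a library left out and was called in 2 of them, at log2 fold changes of -2.69 to -1.68 over the 3, and the call was lost without L-DL KD replicate 3. Many genes of this list are also expressed by astrocytes or oligodendrocyte precursors. With 1 library left out, 3 to 7 were higher, the fewest without control replicate 1 or 2.

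Of 11 intermediate progenitor and neuroblast genes tested, 2 were higher, 4 lower and 5 not called, with a median log2 fold change of -0.69. Btg2, an antiproliferative gene that is also induced by activity and stress, had 33.4, 41.2 and 28.5 CPM in the controls and 59.4, 71.8 and 97.5 CPM in L-DL KD (adjusted p = 0.00385, edgeR). Dlx1, a factor of GABAergic precursors that adult interneurons keep, had 38.9, 36.5 and 36.3 CPM in the controls and 19.3, 11.1 and 6.19 CPM in L-DL KD (adjusted p = 0.00892, edgeR). The RNA binding proteins of this list that fell, Elavl2 and Elavl4, are also made by mature neurons. Only 1 was called higher without control replicate 1 or 3 or L-DL KD replicate 2 or 3.

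Of 18 immature neuron genes, all tested, 5 were higher, 8 lower and 5 not called, with a median log2 fold change of -0.08, so genes of this list did not move one way with Dcx. Nrp2, a semaphorin receptor, had 93.0, 85.8 and 94.0 CPM in the controls and 195, 196 and 207 CPM in L-DL KD (adjusted p = 8.38e-05, edgeR). Neurod6, which CA1 and other pyramidal neurons keep expressing, had 158, 150 and 162 CPM in the controls and 44.8, 34.3 and 22.4 CPM in L-DL KD (adjusted p = 0.000349, edgeR). Ncam1, a cell adhesion gene with the highest mean CPM of this list, rose by a log2 fold change of 0.33 (adjusted p = 0.00816, edgeR). In which cells it rose was not tested. The count of lower genes rests on the libraries, being 4 without control replicate 1 and 5 without control replicate 2. Scaling to the dentate granule markers left 1 of 18 lower. That scaling also cut all genes called lower from 2636 to 551, so its count is not particular to this list. The higher genes numbered 3 without control replicate 3.

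**Figure D4:**
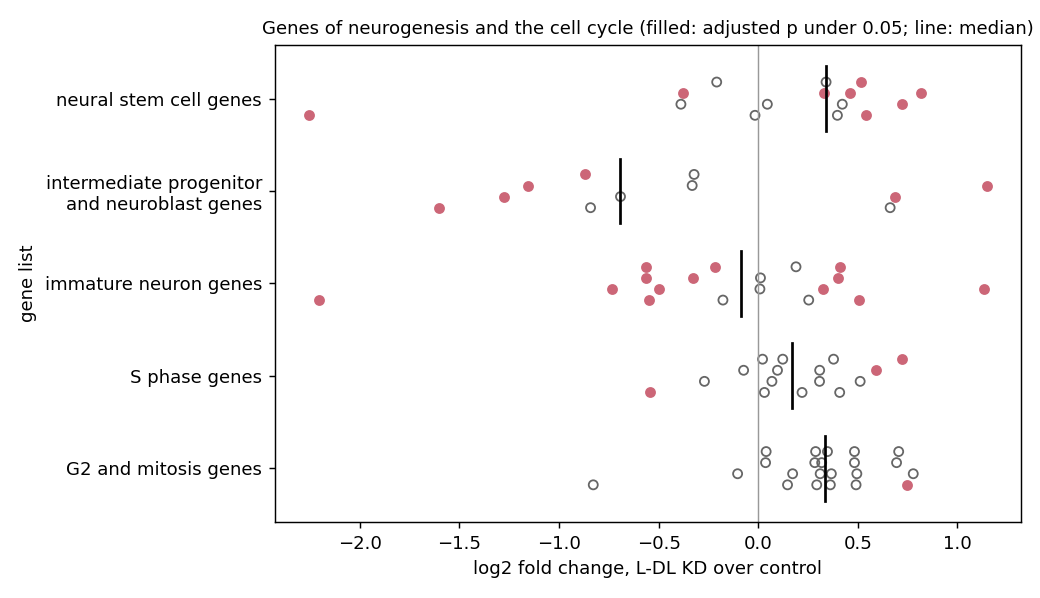
Log2 fold change, L-DL KD over control, of each tested gene in 5 lists of neurogenesis and the cell cycle, filled where the adjusted p was under 0.05, with a line at each list's median. The immature neuron genes lie on both sides of 0, and 20 of the 22 G2 and mitosis genes lie above 0 with 1 of them called.

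Cell cycle genes were read beside Mki67 and Top2a. Of 22 G2 and mitosis genes, all tested, 20 had a log2 fold change above 0. The median of the list was 0.33, against 0.01 over all genes tested. Only Cenpe, a kinesin of the kinetochore, passed the test, 4.55% of the list against 15.6% of all genes called higher. At an unadjusted p under 0.05, 4 were higher. Scaled to the dentate granule markers, 9 of the 22 were called higher, as were 7162 of all 17621 genes tested. Cenpe had 2.95, 3.23 and 2.41 CPM in the controls and 5.39, 4.25 and 4.82 CPM in L-DL KD (adjusted p = 0.0300, edgeR), a call kept in 1 of the 6 fits that leave out a library, that without L-DL KD replicate 2. Nusap1, a protein of the mitotic spindle, had a log2 fold change of 0.04 (adjusted p = 0.928, edgeR). Of 16 S phase genes, 2 (12.5%) were higher, 1 (6.25%) lower and 13 not called, with a median log2 fold change of 0.17. These shares were below those of all genes tested. Mcm3, a subunit of the replicative helicase, had 10.3, 10.4 and 8.11 CPM in the controls and 16.0, 14.6 and 17.0 CPM in L-DL KD (adjusted p = 0.00731, edgeR). Pcna, the sliding clamp of replication, had a log2 fold change of 0.10 (adjusted p = 0.343, edgeR), and Ccne1, the cyclin of S phase entry, fell by 0.55 on the log2 scale (adjusted p = 0.0219, edgeR). That call was kept in 2 of the 6 fits that leave out a library and was lost without control replicate 2 or 3 or L-DL KD replicate 2 or 3. Without control replicate 1 or 3, only 1 S phase gene was higher.

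Markers of other cells moved in the same libraries. All 12 microglia markers were higher, their sum rising from 1437 to 1796 CPM in the controls to 3013 to 3925 CPM in L-DL KD, and 9 of 10 oligodendrocyte precursor markers were higher, from 621 to 649 CPM to 841 to 1016 CPM. Endothelial markers were higher in 4 of 8. Microglia and oligodendrocyte precursors are glial cells that can divide, and the part of these cells in the values of Sox4, Mki67 and Top2a was not tested. The sum of the 9 genes was 104 to 119 CPM in the controls and 139 to 157 CPM in L-DL KD.

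The dentate granule markers, the mature cells that Dcx-expressing cells become, did not move together. Of 10 markers, 1 was higher, 4 lower and 5 not called, with a median log2 fold change of -0.26. The higher markers numbered 2 with DESeq2, with scaling by library size and without L-DL KD replicate 1. Scaling to their own mean gave 3, but it centres these markers by construction, so it cannot show whether they moved together. Prox1, the factor that defines granule cells and is expressed from the progenitor stage on, had 138, 153 and 152 CPM in the controls and 157, 194 and 190 CPM in L-DL KD, and did not pass the test (adjusted p = 0.0513, edgeR). Stxbp6 was higher by a log2 fold change of 0.63, and Lct fell by 1.60 on the log2 scale. Of the pan-neuronal markers, 7 of 8 were lower, including Snap25 and Rbfox3, and Nefl was higher. The lower pan-neuronal markers numbered 3 without control replicate 1 or 2, and 4 without control replicate 3 or L-DL KD replicate 2. With scaling to the dentate granule markers they numbered 3, under a median log2 fold change of all genes of 0.43.

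The order of the L-DL KD libraries seen in Igfbpl1, Eomes and Draxin also appeared in other markers. Summed choroid plexus and ependymal markers were 1690, 460 and 4535 CPM in the controls and 5103, 165 and 68.4 CPM in L-DL KD, so they too were highest in L-DL KD replicate 1 and lowest in replicate 3. In the controls the order differed, since control replicate 3 had the most of these markers and the least Igfbpl1, Eomes and Draxin. What differed between these libraries was not tested.

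**Figure D5:**
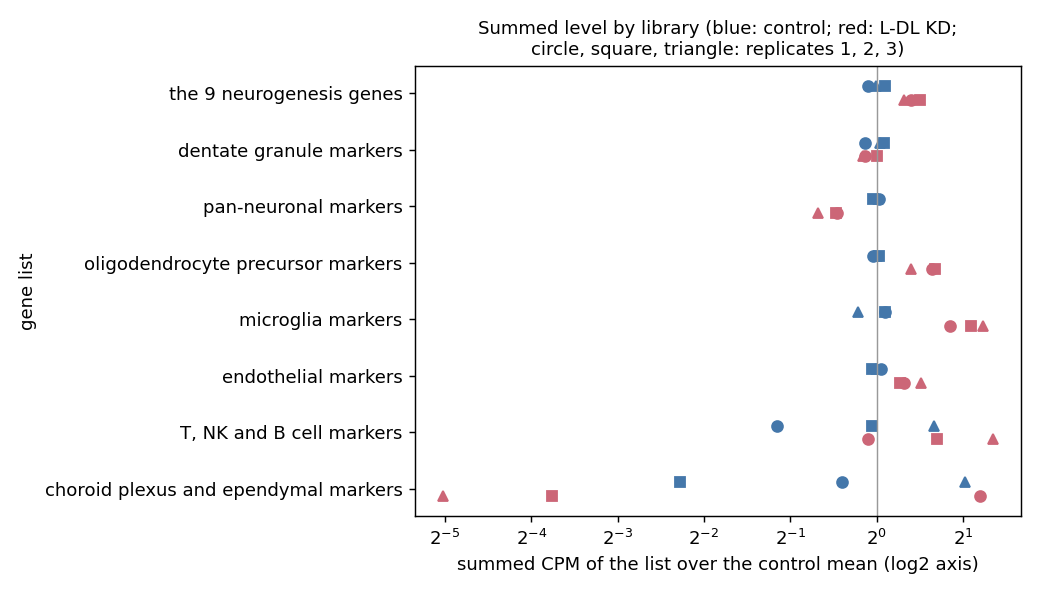
Summed CPM of the 9 genes and of 7 marker lists in each library, divided by the control mean, on a log2 axis, in blue for control and red for L-DL KD, with circles, squares and triangles for replicates 1, 2 and 3. Microglia and oligodendrocyte precursor markers are higher in every L-DL KD library, and the choroid plexus and ependymal markers range from 68.4 to 5103 CPM within L-DL KD.

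T, NK and B cell markers were called in 0 of 12 by edgeR and by DESeq2 (2 lower at an unadjusted p under 0.05). Without L-DL KD replicate 3, 1 was lower. With scaling to the dentate granule markers, which raised genes in general, 2 were higher. Their log2 fold change was below 0 in 10 of 12, with a median of -0.32, whereas their sum was 61.9 to 218 CPM in the controls and 128 to 350 CPM in L-DL KD. Jchain, a gene of plasma cells, made up 25.9 to 184 CPM of it in the controls and 108 to 315 CPM in L-DL KD. Markers of Cajal-Retzius cells, which secrete reelin, were called in 0 of 5 tested by edgeR and by DESeq2 (1 higher at an unadjusted p under 0.05). Without L-DL KD replicate 1, 1 was higher and 2 lower. Choroid plexus and ependymal markers were called in 0 of 6 by edgeR (1 higher at an unadjusted p under 0.05), in 1 by DESeq2, and 4 were lower without L-DL KD replicate 1. Astrocyte markers were lower in 4 of 8, among them S100b, and higher in 1, Aqp4. With each library left out, 4 were lower too. Scaling to the dentate granule markers called 0 lower, but it raised the median log2 fold change of all genes to 0.43.

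Splicing of the 9 genes was covered thinly. The junction table held 40961 events in 10911 genes, of which 5 events fell in 3 of the 9 genes, and none of the 5 had a mean of 20 counts per library. The table does not number its replicates. At a minimum mean of 10 counts, 2 events could be tested with edgeR, 0 were called, and 0 had an unadjusted p under 0.05, while 0.238% of all 20608 such events were called.

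In Dcx, an alternative 5′ splice site adds 15 bases (X:143875755-143875769). The proportion spliced in (PSI), computed from length-corrected junction counts, was 0.834, 1.0 and 0.561 in the controls and 0.646, 0.681 and 0.432 in L-DL KD, so the groups overlapped (adjusted p = 0.751, edgeR). In Top2a, an alternative 3′ splice site adds 3 bases (11:98995376-98995378). Its PSI was 0.811, 0.497 and 0.597 in the controls and 1.0, 0.664 and 0.622 in L-DL KD (adjusted p = 0.847, edgeR). These values rest on means of 10.2 and 12.7 counts per library, and neither event passed the test. The other 3 events were skipped exons of Mki67 with means of 1.17 to 2.5 counts per library.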

How the data were processed

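Hippocampal RNA of 3 control and 3 L-DL KD samples was sequenced as 150 nt pairs after oligo(dT) enrichment. The authors deposited raw counts per Ensembl gene and junction counts of rMATS. The submitters' processing notes name HISAT2 (2.1.0), HTSeq (0.6.1), Bowtie (1.1.2) and mm10, without their roles. Whether counting used strand is not given in the sources used here. The authors' p-value, FDR, PSI and PSI difference columns were not used. In the splicing table, sample 1 was taken as L-DL KD because the methods define the PSI difference as knockdown minus control. The header names no group, so the direction of PSI rests on this reading.

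A gene was tested if 3 or more libraries had 10 or more counts, with edgeR (version 4.0.16; TMM, quasi-likelihood) in R (version 4.3.3), with Benjamini-Hochberg adjustment over all of them. Junction counts of both forms were tested with edgeR for events with a mean of at least 20, or 10, counts per library and of at least 1 of each form. Tables were made in Python (version 3.11.15). The tests were checked on simulated data. Gene names, exon lengths and positions came from GENCODE on GRCm38.

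The 9 genes and all lists were chosen with earlier results of these data known. Besides the 9 genes, each list's gene with the highest mean CPM, largest called rise and largest called fall were eligible to be named, as were the 3 nearest profiles of Dcx, Sox11 and Mki67. Elavl2, Elavl4 and the Sox4 to Sox11 ratio were added after their values were seen. Alternatives were DESeq2 (version 1.42.0), limma-voom (version 3.58.1), other scalings and filters, the replicate number as a block, and fits without each library.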

Additional observations from a re-analysis of the deposited data

How the results depend on the processing

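Over 7 other fits, the number of the 9 genes called higher was 2 to 6 and of those called lower 0. Sox4 kept its call in each of them and with each library left out. Dcx had adjusted p = 0.0612 without a filter on low counts (log2 fold change 0.37) and 0.0713 in the block fit (0.37). Neurod1 passed with DESeq2 (0.48, adjusted p = 0.0352), without a filter (0.48, 0.0465) and in the block fit (0.48, 0.0428). Igfbpl1 turned to -0.21 with limma-voom and to -0.17 in the block fit. The cause of these changes was not tested.

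Scaling to the dentate granule markers raised the median log2 fold change of all genes to 0.43 and called 7162 genes higher and 551 lower (92.9% of calls higher, against 51.0%). It called 6 of the 9 genes higher. The log2 fold changes were then 0.55 for Sox11, 0.93 for Neurod1, 0.92 for Mki67 and 0.71 for Top2a, and Eomes turned to 0.25. Relative to that median, Sox11 stood at 0.12, Neurod1 at 0.49, Mki67 at 0.48, Top2a at 0.28 and Eomes at -0.18, close to the values with TMM. In the lists, this scaling, added after seeing the data, called higher 10 neural stem cell, 6 S phase and 9 G2 and mitosis genes, and called lower 1 neural stem cell, 1 immature neuron and 0 S phase genes.

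Deviations of same-numbered libraries had correlations of 0.06, 0.16 and -0.14, and 3 of 6 libraries were best with their own number. With 3 libraries per group, this cannot show whether same-numbered libraries shared a batch. With the replicate number as a block, 2311 genes were higher and 2323 lower, 1 neural stem cell gene was lower against 2 without the block, 0 S phase genes were lower against 1, and 0 G2 and mitosis genes were higher against 1. Of the T, NK and B cell markers, 1 was then higher and 1 lower, and 2 dentate granule markers were higher.

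With 1 library left out, the number of the 9 genes called higher was 1 to 3. Log2 fold changes ranged from 0.31 to 0.43 for Dcx, 0.37 to 0.63 for Neurod1, -0.61 to 0.50 for Igfbpl1, -0.67 to 0.22 for Eomes, 0.18 to 0.80 for Draxin, 0.35 to 0.69 for Mki67 and 0.12 to 0.49 for Top2a. All genes called higher ranged from 1770 to 3236 and lower from 1676 to 3241. Called higher were 3 to 7 neural stem cell, 1 to 2 progenitor and neuroblast, 3 to 6 immature neuron, 1 to 3 S phase and 0 to 1 G2 and mitosis genes. Called lower were 1 to 3 neural stem cell, 3 to 5 progenitor and neuroblast, 4 to 8 immature neuron and 0 to 1 S phase genes. Fewer samples enter each of these fits.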
